A study of Homo sapiens with 14 samples.

Results

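The DNA replication machinery was followed through translation as 44 genes, out of 58434 gene symbols in the count table, in MDA-MB-231 cells with and without DAP5. The genes were listed by name for their known roles. They fall into 8 role groups, which are origin recognition, origin licensing, helicase activation, the sliding clamp and its loader, polymerases and primase, single-strand DNA binding, Okazaki fragment joining and nucleotide supply. All 44 symbols were found, every one had reads in each of the 14 libraries, and every one entered each test. MDA-MB-231 is an established line of triple-negative breast cancer cells. The cells carried stable doxycycline-inducible shRNAs in the TRIPZ lentivirus vector, either non-silencing (shNSi) or targeting DAP5 (shDAP5), and both lines received doxycycline at 1 µg/ml for 6 days. DAP5, encoded by EIF4G2, is a relative of the scaffold eIF4GI that lacks the binding site for the cap-binding protein eIF4E. Each line was grown as 2 cultures, treated with cycloheximide to hold ribosomes on mRNA, and sampled as total mRNA and as light (poorly translated) and heavy (well-translated) polysome pools from a sucrose gradient. The shNSi cultures also gave a moderate pool, for which no shDAP5 counterpart was analysed here. The study asked which mRNAs need DAP5 for translation, and translation efficiency here means polysome over total mRNA, as a log2 ratio.

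DNA replication begins when the origin recognition complex, ORC1 to ORC6, together with CDC6 and CDT1 loads the MCM2-7 ring onto DNA, a step called licensing. CDC45 and the GINS complex join the ring and MCM10 helps to activate it as the replicative helicase. RPA coats the exposed single strands, the DNA polymerase alpha-primase complex lays down primers, replication factor C loads the PCNA clamp, and polymerases epsilon and delta extend the strands. FEN1 trims and LIG1 joins the Okazaki fragments, while ribonucleotide reductase (RRM1, RRM2) and thymidylate synthase (TYMS) supply nucleotides. Many of these genes are E2F targets that are transcribed in proliferating cells.

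Library totals ranged from 25899838 to 30795910 counts, and the 44 members took between 0.354% and 0.874% of them. The lowest member count in any library was 287, for POLA2, and the highest was 29491, for RRM1. The markers of the line, VIM, CD44, EGFR, SPARC and AXL, were expressed in every library (at least 44.7 CPM), while of the luminal and epithelial markers PGR had no reads, ESR1 and CDH1 stayed under 1 CPM, EPCAM lay between 2.53 and 6.06 CPM, GATA3 between 9.55 and 15.2 CPM and ERBB2 between 42.4 and 87.4 CPM. The blood, liver and basal epithelial markers PTPRC, CD3E, ALB, KRT5 and KRT14 had at most 10 counts in any library. EIF4G2, the silenced gene, had 1391 and 1358 CPM in total mRNA of the shNSi cultures and 525 and 730 CPM in the shDAP5 cultures. It fell by 1.11 on the log2 scale (SE 0.18, edgeR quasi-likelihood test, adjusted p = 0.0172). Without shDAP5 replicate 1 the change was -0.90, with adjusted p = 0.680. It also missed the threshold in 1 fit of all 14 libraries (-1.13, adjusted p = 0.443) and with library size in place of TMM (-1.07, adjusted p = 0.0501). CPM values use TMM-scaled library sizes over the 14 libraries, except those of the markers of the line and of other tissues, which use the plain library totals. The shDAP5 libraries with light in their title shared the column code of the shNSi moderate pool, and those of shDAP5 total mRNA had the title total polysome, so each pool was taken by title.

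Annotated start codons are given here for some of the mRNAs on which the results turn, and where initiation takes place was not measured. Each window below gives 12 bases before the start codon, the codon itself in capitals and the bases after it, 30 in all, 5′ to 3′, from the spliced GENCODE v29 transcript. The first 7 belong to mRNAs that fell in heavy translation efficiency and the last 2, GINS2 and RPA3, to those that rose. The GRCh38 positions of the start codons are chr3:127598467-127598469 (+) for MCM2, chr22:35400439-35400441 (+) for MCM5, chr2:135876363-135876365 (-) for MCM6 and chr7:100101292-100101294 (-) for MCM7. They are chrX:24693962-24693964 (+) for POLA1, chr17:1830094-1830096 (+) for RPA1, chr11:4095013-4095015 (+) for RRM1, chr16:85688896-85688898 (-) for GINS2 and chr7:7640416-7640418 (-) for RPA3. All 9 lie in coding exons, each with the last bases of the 5′ UTR before it.
MCM2: cgtggtactgctATGgcggaatcatcggaa
MCM5: agaggcgcagtcATGtcgggattcgacgat
MCM6: cactaagcaaatATGgacctcgcggcggca
MCM7: ccctcggcagcgATGgcactgaaggactac
POLA1: agattcgggaccATGgcacctgtgcacggc
RPA1: ggcggtggagccATGgtcggccaactgagc
RRM1: ccactagctgcgATGcatgtgatcaagcga
GINS2: gctcgcgccgccATGgacgctgccgaggtc
RPA3: tggaccataatcATGgtggacatgatggac

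A purine 3 bases before the start codon and a G directly after it are the bases that weigh most in the Kozak context. A purine stood at the first place in 41 of the 44 members (93.2%, against 85.1% of 18483 coding genes), and a G at the second in 22 (50.0%, against 50.7%). Among the members that fell in heavy translation efficiency, 14 of 15 had the purine and 10 of 15 the G. Both members that rose had both, and of the other 27 members 25 had the purine and 10 the G. The member that fell without the purine was MCM3. Each gene was read from a single annotated transcript, chosen by principal-isoform rank, support level and coding length. A gene with another start codon could count differently. These are counts of letters and no test was made of them.

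In total mRNA no member passed the threshold after DAP5 silencing, where 0.354% of 14992 genes did (0.267% lower and 0.0867% higher, 53 genes in all). The median log2 change of the 44 members was -0.13, against 0.01 over all genes, and single changes lay between -0.64 for RRM2 and 0.44 for RPA3. The members' median was 0.01 without shDAP5 replicate 1, -0.26 without shDAP5 replicate 2, -0.18 without shNSi replicate 1 and -0.08 without shNSi replicate 2. At an unadjusted p under 0.05 there were 5 members, among 1799 of 14992 genes, and the lowest adjusted p of a member was 0.180. DESeq2 and limma also called 0 members. RRM2, the small subunit of ribonucleotide reductase and the member with the lowest change, had 321 and 374 CPM in the shNSi cultures and 178 and 262 CPM in the shDAP5 cultures. Its groups did not overlap, and it was called lower without the filter on low counts and without shDAP5 replicate 2. The groups did not overlap in 21 of the 44 members, where 42.3% of all genes did not. In bulk samples a change in the number of cells in S phase and a change in RNA per cell cannot be told apart.

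Most replication mRNAs of control cells were enriched in the heavy pool. In the shNSi cultures 30 of the 44 members were higher in the heavy than in the light pool, where 34.7% of 16235 genes were, and 5 were lower, where 30.5% were. The median log2 difference between heavy and light pools was 1.78, against -0.03 over all genes. With library size in place of TMM the split over all genes moved from 5636 higher and 4948 lower to 3937 and 7282, and that of the members to 27 and 8. The 6 subunits of the MCM2-7 helicase were all called higher in the heavy pool, between 2.77 for MCM4 and 3.47 for MCM6, which is 6.82- to 11.1-fold. MCM2, for one, had 37.7 and 67.9 CPM in the light pool, 34.6 and 97.6 CPM in the moderate pool, and 399 and 541 CPM in the heavy pool of the shNSi cultures. RRM1, the large subunit of ribonucleotide reductase, was at 3.30 (SE 0.31, adjusted p = 1.17e-07), and RPA1, the large subunit of RPA, at 3.14 (SE 0.31, adjusted p = 1.31e-07).

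The members lower in the heavy than in the light pool of control cells were RPA3, POLE3, GINS2, POLD2 and GINS1. RPA3, the smallest RPA subunit, differed by -2.22 (SE 0.27, adjusted p = 7.03e-07), with 139 and 83.2 CPM in the light pool and 26.6 and 19.99 CPM in the heavy pool. POLE3, a small histone-fold subunit of polymerase epsilon, differed by -1.59 (SE 0.29, adjusted p = 7.16e-05). GINS2, a subunit of the GINS ring, differed by -1.42 (SE 0.25, adjusted p = 5.22e-05). Subunits of a single complex therefore lay apart on the gradient, as RPA1 and RPA3 did, and the GINS subunits lay between -1.42 and -0.04 while the MCM subunits started at 2.77. Among all genes with coding sequences under 1000 nt 60.7% were lower in the heavy pool, and among those over 2000 nt 69.9% were higher. RPA3, POLE3 and the GINS subunits are in the first class and the MCM2-7 subunits in the second. Between the moderate and the light pool 15 members were higher (16.0% of all genes) and 2 lower (16.3%). Between the heavy and the moderate pool 27 were higher (24.1%) and 4 lower (13.1%). With library size in place of TMM the split of all genes between heavy and moderate pools moved from 3914 higher and 2126 lower to 2782 and 4889, and that of the members to 20 and 12. Between moderate and light pools it moved from 2596 higher and 2644 lower to 1559 and 3145, and that of the members to 9 and 2. The moderate pools of the 2 shNSi cultures differed from each other for these mRNAs. The log2 ratio of moderate pool to total mRNA for MCM5 was -2.12 in replicate 1 and -0.40 in replicate 2, and for FEN1 it was -0.33 and 0.86.

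In DAP5-silenced cells 27 members were higher in the heavy than in the light pool (24.6% of all genes) and 2, RPA3 and POLE3, were lower (22.6%), with a median of 0.83. All 6 MCM subunits were again called higher in the heavy pool, now between 0.84 and 1.87. POLA1, the catalytic subunit of polymerase alpha, was at 0.13 (SE 0.27) and RFC1, the large clamp loader subunit, at 0.03 (SE 0.25), while in control cells they were 6.06-fold and 4.01-fold higher in the heavy pool. With library size in place of TMM the split of all genes moved from 3991 higher and 3663 lower to 2869 and 4676, and 20 members were called higher. Without shDAP5 replicate 1 the members called higher numbered 11, among 1713 of 16724 genes, and without shDAP5 replicate 2 they numbered 13, among 1746 of 16832 genes.

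**Figure D1:**
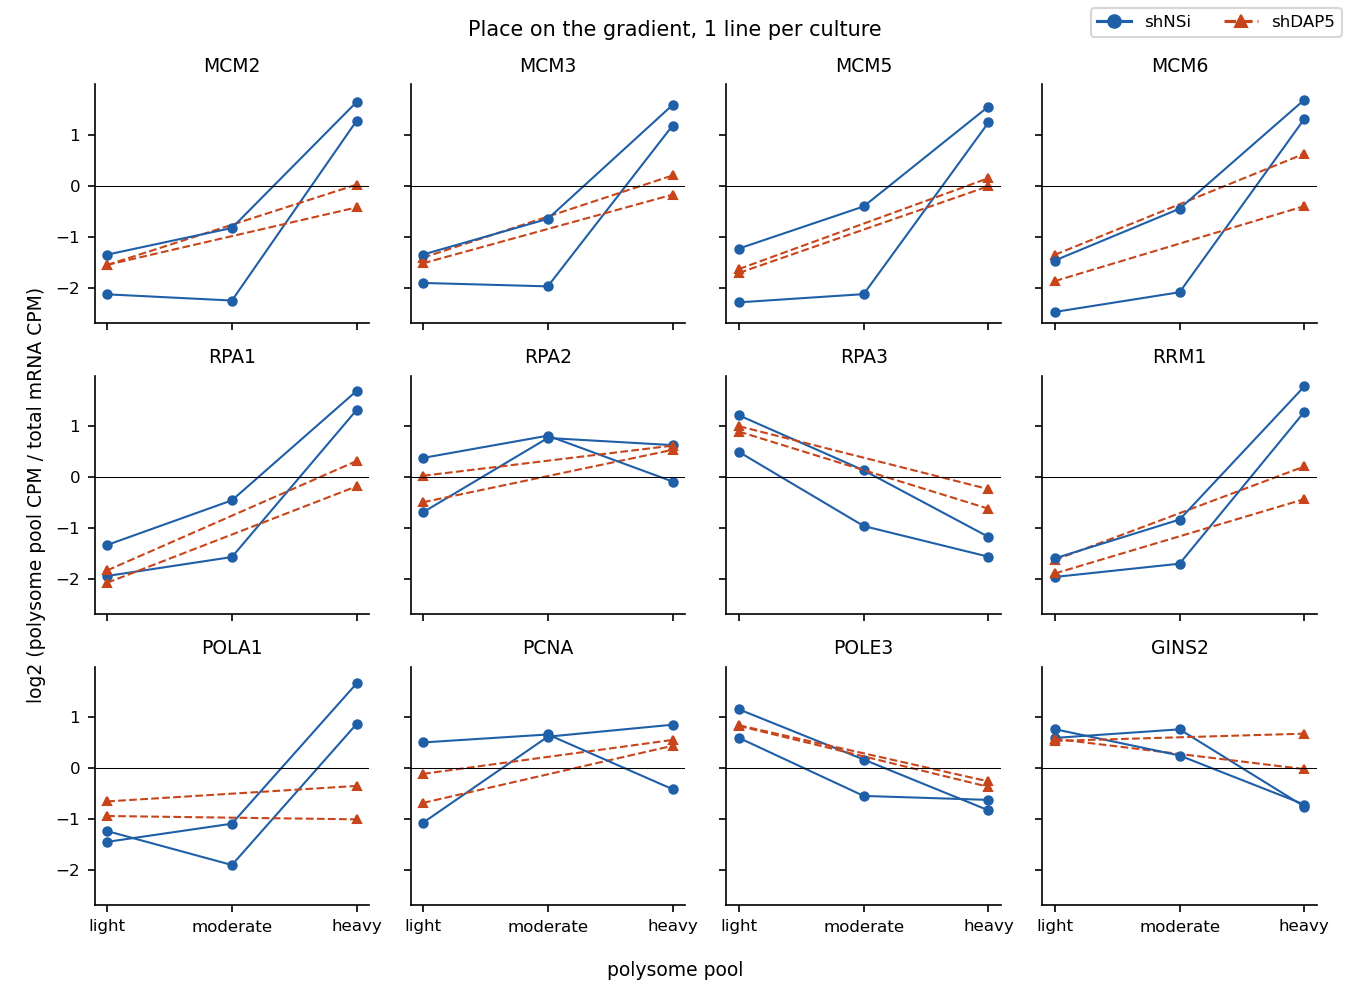
Log2 ratio of each polysome pool (light, moderate, heavy; x axis) to total mRNA of the same culture (y axis) for 12 members, with a solid blue line for each shNSi culture and a dashed red line for each shDAP5 culture, for which no library titled moderate was analysed here. MCM2 climbs to 1.27 and 1.64 in the heavy pool of the shNSi cultures and to 0.02 and -0.42 in the shDAP5 cultures, whereas RPA3 runs downward in all 4 cultures.

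In heavy polysomes 22 of the 44 members fell after DAP5 silencing and 3 rose, where 16.7% of 14270 genes fell and 14.2% rose. The median change was -0.78, against 0.09 over all genes. POLA1 fell most, by 2.04 on the log2 scale (SE 0.34, adjusted p = 1.04e-06), from 79.9 and 135 CPM in the shNSi cultures to 25.5 and 20.5 CPM in the shDAP5 cultures. RRM1 fell by 1.85 (SE 0.38, adjusted p = 6.37e-05), from 763 and 1397 CPM to 279 and 247 CPM. MCM2 fell by 1.78 (SE 0.36, adjusted p = 5.11e-05), from 399 and 541 CPM to 134 and 106 CPM. The members that rose were RPA3 (1.54), GINS2 (1.02) and GINS4 (0.89). With library size in place of TMM the split over all genes went from 2390 lower and 2024 higher to 1139 and 2504, and 14 members were then lower and 4 higher. DESeq2 called 24 members lower, where it called 19.6% of genes lower, and 3 higher (10.6%). Without shDAP5 replicate 2 no member was called, as 2 genes in all were. The median change of the members without that culture was -0.89. With the shNSi moderate pool as control no member was called (0.165% of genes lower and 0.179% higher), and with the shNSi heavy and moderate pools summed 1 fell (2.22%).

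Translation efficiency on heavy polysomes fell in 15 members and rose in 2, where 8.23% of 15374 genes fell and 4.85% rose. The median change of the members was -0.52, against 0.09 over all genes, and 30 of the 44 lay below 0. The 15 that fell were all among the 22 that fell in heavy polysome mRNA. In 28 members the heavy-to-total ratios of both shDAP5 cultures were under those of the shNSi cultures, where 33.5% of all genes showed this, and in 8 they were over them, where 25.9% did. DESeq2 called 18 members lower (15.5% of genes with an adjusted p) and 2 higher (5.77%), and limma after quantile normalization called 8 (4.85%) and 2 (4.30%). Over all genes the split of 1266 lower and 746 higher became 1575 and 585 with DESeq2, 746 and 661 with limma, and 0 and 0 with library size in place of TMM. That last scaling moved the median of all genes from 0.09 to 0.30. Relative to it the members lay at -0.61 in both scalings. At an unadjusted p under 0.05 there were 4599 genes and 25 members without TMM, against 4564 genes and 22 members with it. The calls changed when a culture was left out. The members that fell numbered 5 without shNSi replicate 1 (552 of 15917 genes), 0 without shNSi replicate 2 (3 of 15976), 17 without shDAP5 replicate 1 (2453 of 15845) and 1, POLA1, without shDAP5 replicate 2 (39 of 15914).

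**Figure D2:**
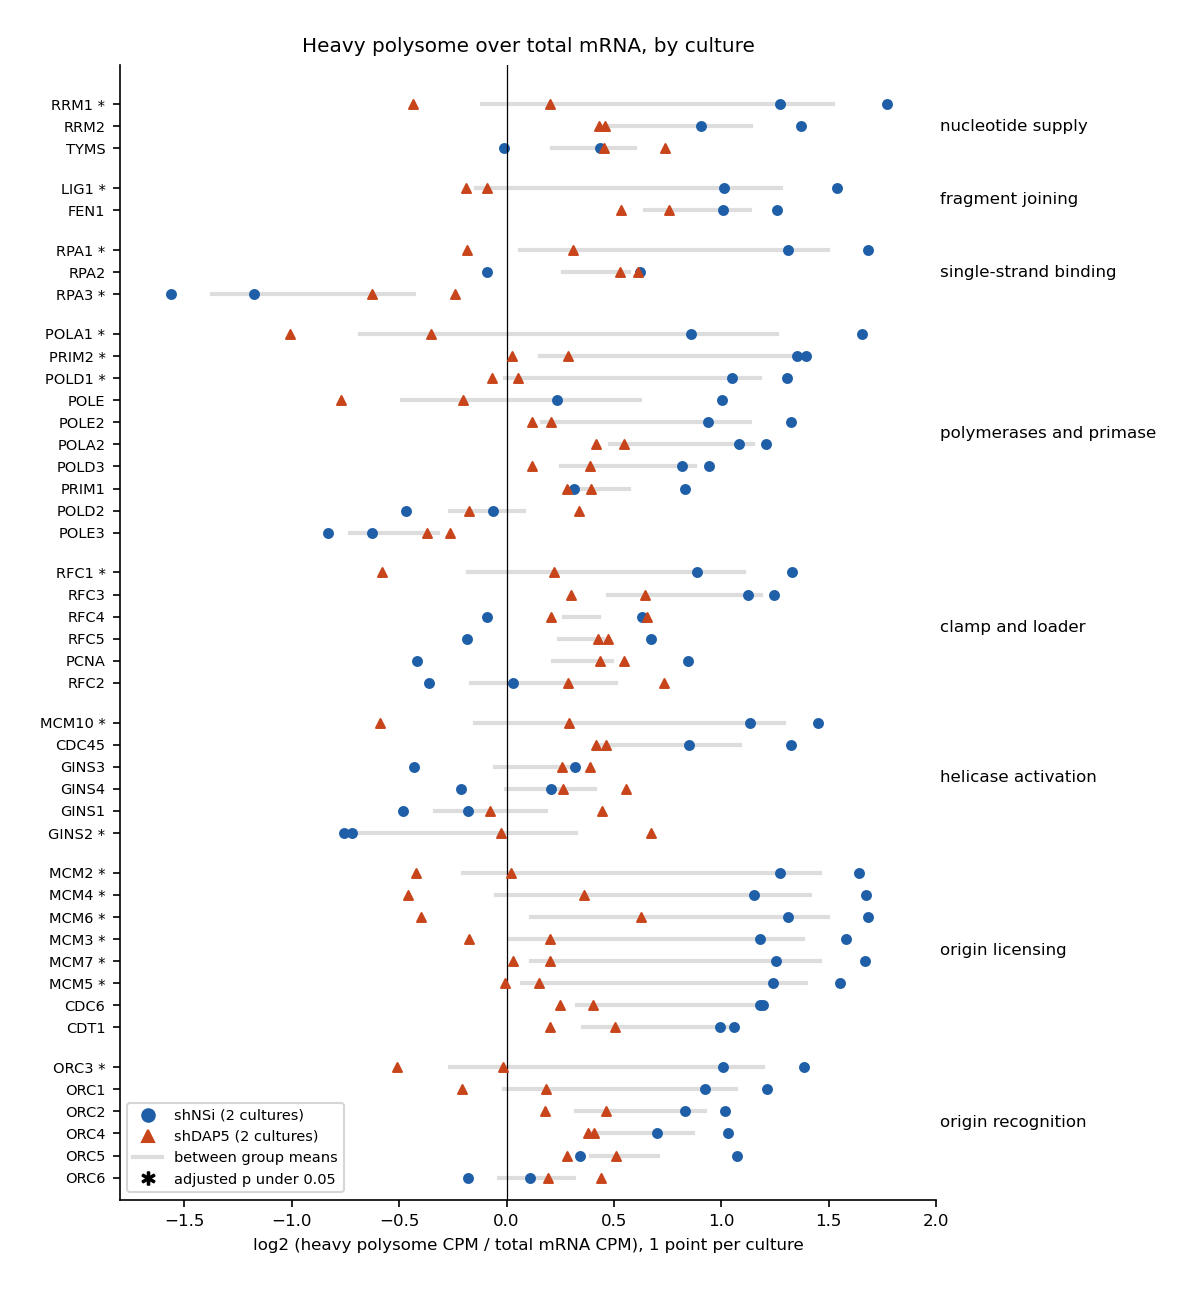
Heavy polysome over total mRNA as a log2 ratio (x axis) for each of the 44 members by role group (y axis), with 1 blue circle for each shNSi culture, 1 red triangle for each shDAP5 culture, a grey bar between the group means and an asterisk where the change passed the adjusted threshold. The 6 MCM subunits have both red triangles left of both blue circles, and GINS2 and RPA3 have them on the right.

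In origin licensing 6 of 8 members fell, and these were the 6 subunits of the MCM2-7 ring. With limma 2 of them, MCM2 and MCM4, were called lower, and with the length offset 1, MCM2. The changes of the 6 subunits in heavy translation efficiency lay between -1.51 and -1.18, with a median of -1.23, which is 2.27- to 2.86-fold lower. MCM2 had log2 ratios of heavy polysome to total mRNA of 1.27 and 1.64 in the shNSi cultures and 0.02 and -0.42 in the shDAP5 cultures, a change of -1.51 (SE 0.34, adjusted p = 0.00799). MCM3, the licensing gene with the most counts in total mRNA, had ratios of 1.18 and 1.58 and then 0.20 and -0.17, a change of -1.22 (SE 0.36, adjusted p = 0.0228). In the groups below, counts of members are likewise compared in total mRNA. MCM7 had ratios of 1.25 and 1.67 and then 0.20 and 0.03, a change of -1.20 (SE 0.36, adjusted p = 0.0245). MCM4 fell by 1.32, MCM6 by 1.24 and MCM5 by 1.18. In the shDAP5 cultures the ratios of MCM4 (0.36 and -0.46) and MCM6 (0.63 and -0.40) spread more than those of MCM5 (0.15 and -0.01). In total mRNA the 6 subunits changed by -0.34 to -0.07 and none passed the threshold. The loaders CDC6 (-0.72) and CDT1 (-0.53) did not pass it in translation efficiency, although neither overlapped between the groups.

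In origin recognition ORC3 alone fell, by 1.32 (SE 0.34, adjusted p = 0.0117). Its ratios of heavy polysome to total mRNA were 1.01 and 1.38 in the shNSi cultures and -0.02 and -0.51 in the shDAP5 cultures. ORC1, the largest ATPase subunit of the complex, had a change of -0.94 with adjusted p = 0.0554, just above the threshold of 0.05. ORC2 (-0.46), ORC4 (-0.33) and ORC5 (-0.17) did not pass, nor did ORC6, the member of this group with the most counts, at 0.50 (SE 0.34). ORC6 had ratios of -0.18 and 0.11 in shNSi and 0.19 and 0.44 in shDAP5.

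Helicase activation held a member in each direction. MCM10 fell by 1.30 (SE 0.34, adjusted p = 0.0135), from ratios of 1.13 and 1.45 to 0.29 and -0.59. GINS2 rose by 1.21 (SE 0.34, adjusted p = 0.0190), from ratios of -0.76 and -0.72 to -0.02 and 0.67. The other GINS subunits had changes of 0.66 (GINS1), 0.56 (GINS4) and 0.52 (GINS3), and CDC45 of -0.50, none of them past the threshold. GINS4, with the most counts of this group, had ratios of 0.21 and -0.21 in shNSi and 0.56 and 0.26 in shDAP5. The GINS subunits have coding sequences under 1000 nt, a class in which 0.0263% of all genes fell and 16.8% rose. The MCM2-7 subunits have coding sequences over 2000 nt, where 26.2% fell. The difference between the 2 complexes was not tested.

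Among the clamp and its loader RFC1 fell, by 1.14 (SE 0.34, adjusted p = 0.0245), from ratios of 0.88 and 1.33 to 0.22 and -0.58. The small RFC subunits RFC2 (0.82), RFC4 (0.31), RFC5 (0.35) and RFC3 (-0.57) did not pass the threshold. PCNA, with the most counts of the group, had ratios of 0.85 and -0.42 in the shNSi cultures and 0.43 and 0.55 in the shDAP5 cultures, a change of 0.42 (SE 0.37, adjusted p = 0.468). The shDAP5 values of PCNA lay between the shNSi values, so the spread between control cultures was larger than the change.

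Of the 10 polymerase and primase members 3 fell. POLA1 fell by 1.80 (SE 0.36, adjusted p = 0.00570), the lowest value of all 44, from ratios of 0.86 and 1.66 to -0.35 and -1.01. PRIM2, the large primase subunit, fell by 1.07 (SE 0.34, adjusted p = 0.0300), from 1.35 and 1.39 to 0.29 and 0.03. POLD1, the catalytic subunit of polymerase delta, fell by 1.04 (SE 0.33, adjusted p = 0.0317), from 1.05 and 1.31 to 0.05 and -0.07. POLE, the catalytic subunit of polymerase epsilon, had a change of -0.96 with adjusted p = 0.0539. The accessory subunits POLA2 (-0.52), POLE2 (-0.82), POLD3 (-0.48) and POLD2 (0.49), the small primase subunit PRIM1 (-0.09) and POLE3 (0.56), with the most counts here, did not pass. POLE3 had ratios of -0.83 and -0.63 in shNSi and -0.37 and -0.27 in shDAP5, which did not overlap.

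Of the 3 subunits of RPA 1 fell and 1 rose. RPA1, which holds the main DNA-binding folds and has the most counts of the 3, fell by 1.29 (SE 0.35, adjusted p = 0.0154), from ratios of 1.31 and 1.68 to 0.31 and -0.19. RPA3 rose by 1.09 (SE 0.34, adjusted p = 0.0300), from -1.18 and -1.56 to -0.62 and -0.24. RPA2 had 0.62 and -0.09 in shNSi and 0.53 and 0.61 in shDAP5, a change of 0.45 (SE 0.34, adjusted p = 0.385). In total mRNA RPA1 was at -0.36 and RPA3 at 0.44, neither past the threshold, with the groups apart in both.

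In Okazaki fragment joining LIG1 fell by 1.27 (SE 0.34, adjusted p = 0.0133), from ratios of 1.01 and 1.54 to -0.09 and -0.19. FEN1, with more counts, had ratios of 1.26 and 1.01 and then 0.53 and 0.76, a change of -0.34 (SE 0.35, adjusted p = 0.540). In nucleotide supply RRM1 fell by 1.49 (SE 0.37, adjusted p = 0.00943), from 1.27 and 1.77 to 0.20 and -0.44. RRM2 had a change of -0.55 (SE 0.35, adjusted p = 0.298). TYMS, which makes thymidylate and has the most counts of this group in total mRNA, had ratios of 0.43 and -0.01 in shNSi and 0.45 and 0.74 in shDAP5, a change of 0.53 (SE 0.35, adjusted p = 0.320).

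The members that fell had long coding sequences. The 15 that fell had coding lengths of 1527 to 4404 nt (median 2559), the 2 that rose 363 and 555 nt, and the other 27 from 441 to 6858 nt (median 1260). Across the 44 members Spearman's rho between coding length and the change in heavy translation efficiency was -0.89, and across 12689 genes it was -0.71. Genes share libraries and are not replicates, so these values are descriptions. Of 15 members with coding sequences over 2000 nt 13 fell, where 26.2% of all such genes did, with a median of -1.24 against -0.70. Of 20 members of 1000 to 2000 nt 2 fell, PRIM2 and RPA1, where 4.11% of genes did, with a median of -0.47 against -0.04. The 9 members under 1000 nt had a median of 0.56, against 0.63, and 2 of them rose, where 16.8% of genes did, and none fell, where 0.0263% did.

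**Figure D3:**
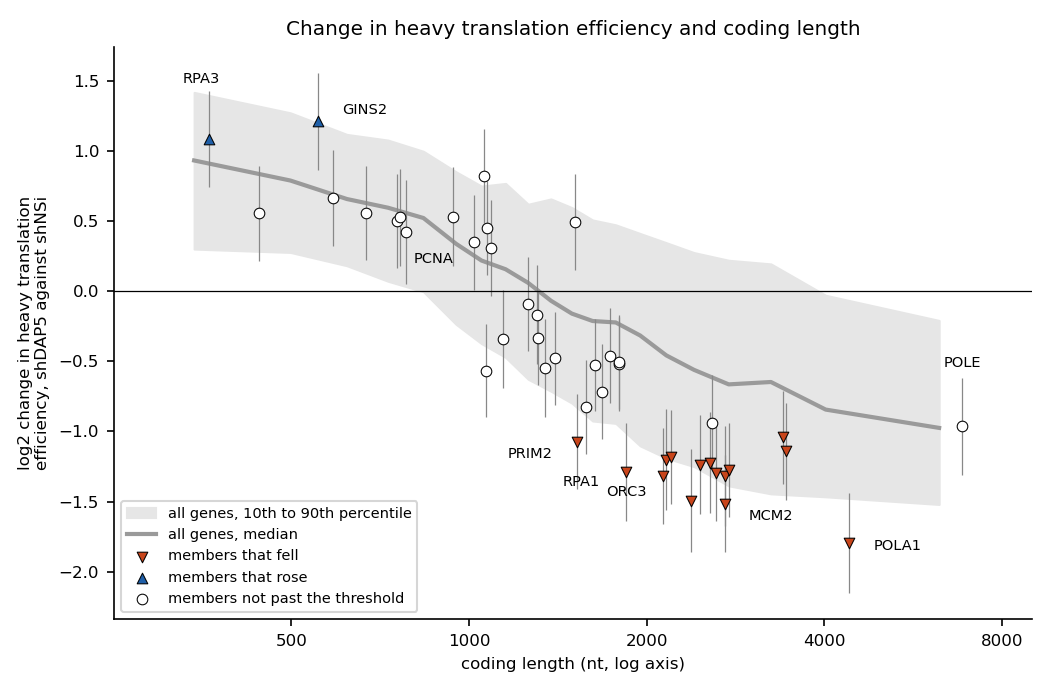
Log2 change in heavy translation efficiency, shDAP5 against shNSi (y axis), against coding length in nt (x axis, log scale) for the 44 members with SE bars, over the median and the 10th to 90th percentile of all genes with a coding length. Members that fell (red) sit mostly above 2000 nt and below the grey median of all genes, and members that rose (blue) are under 1000 nt.

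Along the gradient in control cells the order was the reverse, with long coding sequences highest in the heavy pool against the light. Spearman's rho between coding length and the heavy-to-light difference in shNSi was 0.76 across the members and 0.64 across 12960 genes, and in shDAP5 it was 0.25 and 0.30. With an offset for coding length fitted in each library, rho over all genes in heavy translation efficiency was 0.0073 and over the members -0.62. The value over all genes was brought near 0 by the offset itself, which was fitted to these same genes. Under this offset 6 members fell, MCM2 (-0.92), ORC3 (-0.90), POLA1 (-0.95), PRIM2 (-0.92), RPA1 (-0.98) and RRM1 (-0.98), where 1.78% of 12689 genes fell. None rose, where 1.40% of genes did. In heavy polysome mRNA 12 members fell under the offset (7.19% of genes) and none rose (5.02%). In heavy translation efficiency with the offset the median of the members was -0.33 against -0.0014. The other MCM subunits were at -0.77 to -0.66, each with an adjusted p above the threshold. Ribosome number on an mRNA grows with its coding length, and the share of the changes that goes with length was not tested.

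The heavy-to-light difference, which does not use total mRNA, was compared between the lines in 1 fit of all libraries. Because the shDAP5 libraries titled light share the column code of the shNSi moderate pool, a difference between the pools and one between the lines cannot be told apart here. In 16 members it was smaller in shDAP5 than in shNSi, where 12.4% of 16235 genes were, and in 1, GINS2, it was larger, where 4.70% were. The lowest values were -2.47 for POLA1 (SE 0.38, adjusted p = 0.00321), -1.97 for RFC1 (SE 0.36, adjusted p = 0.00321) and -1.93 for MCM4 (SE 0.41, adjusted p = 0.00513). POLA1 had heavy-to-light ratios of 2.10 and 3.10 in the shNSi cultures and 0.30 and -0.07 in the shDAP5 cultures. ORC1 and POLE were called here and not in heavy translation efficiency, and RPA1 (-1.11, adjusted p = 0.0600) was called there and not here. All 15 members over 2000 nt were lower, where 39.7% of such genes were, and of the 20 from 1000 to 2000 nt 1, PRIM2, was, where 7.48% were. With library size in place of TMM the split of all genes went from 2014 lower and 763 higher to 895 and 1748, and 9 members were lower and 3 higher. Without shNSi replicate 2, or without shDAP5 replicate 2, edgeR called no gene (4302 and 2313 genes at an unadjusted p under 0.05).

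On light polysomes no member was called after DAP5 silencing, and no gene was, in mRNA level or in translation efficiency. Of 15529 genes 1330 had an unadjusted p under 0.05 in light polysome mRNA, among them 4 members, and of 15967 genes 833 in light translation efficiency, among them 3 members. DESeq2 called 105 genes and no member in light polysome mRNA, and 0 genes in light translation efficiency, and limma called 0 genes in both. With the length offset 4 genes (0.0317%) and no member were called in light polysome mRNA. The median change of the members was -0.19 in light polysome mRNA and -0.03 in light translation efficiency. These medians were -0.48 and -0.19 without shNSi replicate 1, 0.13 and 0.11 without shNSi replicate 2, -0.07 and -0.0028 without shDAP5 replicate 1, and -0.29 and -0.06 without shDAP5 replicate 2. The MCM2-7 subunits had light translation efficiency changes of 0.0028 to 0.48. The 2 shNSi cultures differed here. PCNA, for one, had light-to-total ratios of -1.07 and 0.50 in shNSi and -0.69 and -0.12 in shDAP5. Without shNSi replicate 1 the light polysome comparison called 20 members lower and 2 higher among 4678 genes, and light translation efficiency 8 lower and 2 higher among 2030 genes.

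The calls depended on the control pool. With the shNSi moderate pool in place of the shNSi heavy pool no gene of 15434 was called in heavy translation efficiency (455 genes and 10 members had an unadjusted p under 0.05), the median of the members was 0.32, against -0.01 over all genes, and the 17 called members changed sign. MCM2, for one, then stood at 1.32 and GINS2 at -0.20. With the shNSi heavy and moderate counts summed no gene of 15386 was called (386 genes and 1 member at an unadjusted p under 0.05), and the median of the members was -0.13, against 0.06, with POLA1 lowest at -0.81. With the moderate pool as the control for light polysomes 11 members were called lower and 1 higher (13.0% and 12.6% of all genes), and 13 lower and 2 higher in light translation efficiency (13.8% each). The heavy pool of the shNSi cultures also had TMM factors of 0.76 and 0.70, against 1.04 and 0.93 for the shDAP5 heavy pool. Where each pool was cut on the gradient and the effect of DAP5 silencing cannot be told apart in these libraries.

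**Figure D4:**
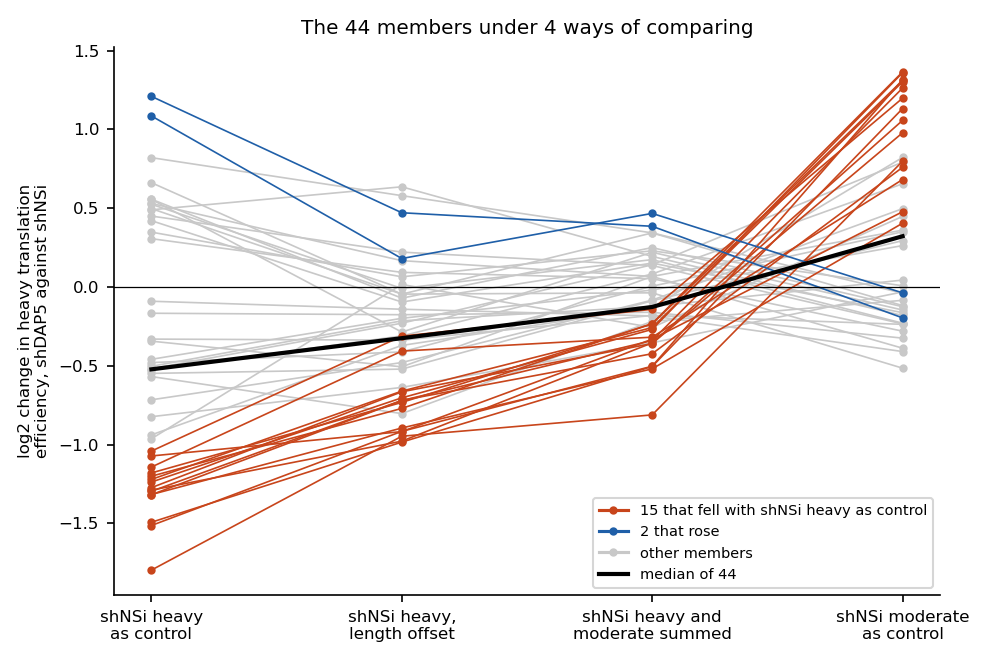
Log2 change in heavy translation efficiency (y axis) of the 44 members under 4 ways of comparing (x axis), with red for the 15 members that fell and blue for the 2 that rose with the shNSi heavy pool as control, and black for the median of the 44. The median runs from -0.52 through -0.33 with a length offset and -0.13 with summed pools to 0.32 with the moderate pool, where all red lines are above 0.

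Of 37 tested genes among other replication factors 10 (27.0%) fell in heavy translation efficiency and 1 (2.70%) rose, where 8.23% of all genes fell and 4.85% rose. TOP2A, the topoisomerase that unlinks sister chromosomes, fell by 1.89 (SE 0.41) and SUPT16H, a subunit of the FACT histone chaperone, fell by 1.59 (SE 0.37), whereas RNASEH2C, a subunit of ribonuclease H2, rose by 1.28 (SE 0.34). Of 19 genes of nucleotide metabolism 3 (15.8%) fell and 2 (10.5%) rose, against the same shares of all genes. MTHFD1, a folate enzyme, fell by 1.61 and GART, of purine synthesis, by 1.31, and the nucleotide kinases NME1 and DTYMK rose by 1.36 and 1.12. Of 16 cell cycle genes, among them E2F1, CCNE1 and CDK1, 1 (6.25%) fell, BUB1, by 1.35 (SE 0.35), and none rose, which is near the shares over all genes. These lists were not split by coding length, and of all genes over 2000 nt 26.2% fell. With the shNSi moderate pool or the summed pools as control no gene was called in heavy translation efficiency.

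Some counts could hold reads of other genes. Exons of TYMS (39.1% of their bases, with ENOSF1), MCM2 (22.7%), GINS4 (21.2%) and GINS3 (10.9%) overlap an antisense gene in GENCODE v29, and reads of the 2 strands cannot be told apart where the counting did not use strand. POLA2 shares 35.1% of its exon bases with a transcript on its own strand, RRM2 20.2% and PRIM1 14.9%. For 8 members, FEN1, PCNA, POLD2, RFC3, RFC5, RPA2, RRM2 and TYMS, the annotation holds a processed pseudogene named after them, so their counts are uncertain, and the part of these overlaps in any change was not tested.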

How the data were processed

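RNA from 14 libraries was sequenced as single reads on an Illumina HiSeq. The submitters' processing notes list STAR 2.6.0a and hg19, and the name of the deposited table refers to featureCounts, whose version and strand setting are not given in the sources used here. The values deposited by the authors are raw counts per gene symbol, with no normalization, and 27 symbols had been turned into dates. Counts were analysed in R 4.3.3 with edgeR 4.0.16 (filterByExpr, TMM, glmQLFit with robust estimation, two-sided glmQLFTest). Benjamini-Hochberg adjustment ran over all genes tested, with a threshold of 0.05 on the adjusted p, and SE is the log2 change divided by the root of F. Total, heavy and light mRNA were each fitted on their 4 libraries. Translation efficiency was the fraction-by-shRNA interaction in 8 libraries with a term for each culture. Heavy, moderate and light pools were compared in 1 fit of 14 libraries with culture as a block. Ratios per culture used CPM plus 0.1, with TMM factors over all 14 libraries. Fits of fewer libraries used TMM factors of their own, so their changes can differ from the differences between these ratios. The study used limma after quantile normalization of total and polysome mRNA, which was run as an alternative (limma 3.58.1), as were DESeq2 1.42.0, library size without TMM, other filters (none, or at least 10 counts in every library), 1 fit of all libraries, other control pools, a lowess offset for coding length (span 0.3), the replicate number as a block and each culture left out.

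The members, roles and gene lists were chosen with earlier results of these data known. Genes named with values are the members called in heavy translation efficiency and the member of each role with the most counts in total mRNA, and in other lists the 2 lowest and 2 highest called genes. Other members given with values were chosen after their values were seen. Coding lengths (longest coding sequence), positions and transcripts come from GENCODE v29 on GRCh38, not the authors' build. All 44 members matched. The study describes 2 independently performed sets, and the labels link no shNSi culture with any shDAP5 culture. Each group holds 2 cultures. The fits were tested on simulated counts.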

Additional observations from a re-analysis of the deposited data

Results flagged for a closer look

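The heavy-to-light difference of 17 members differed between the DAP5-silenced and the control cultures in the edgeR test of that difference itself, which uses no total mRNA, 16 lower and 1 higher, where 12.4% of all genes were lower and 4.70% higher. Of genes with coding sequences over 2000 nt 39.7% were lower, and 15 of the 16 members are of that length. The shDAP5 libraries titled light share the column code of the shNSi moderate pool, so pool and line cannot be told apart. In the licensing ring the difference in log2 was -1.93 for MCM4, -1.85 for MCM2, -1.73 for MCM6, -1.53 for MCM3, -1.42 for MCM5 and -1.36 for MCM7. Among the polymerases it was -2.47 for POLA1, -1.52 for POLD1, -1.35 for POLE and -1.29 for PRIM2. It was -1.61 for ORC3 and -1.24 for ORC1 in origin recognition, -1.59 for MCM10 in helicase activation and -1.97 for RFC1 in the clamp loader. LIG1 stood at -1.33 and RRM1 at -1.65, and GINS2 was the single called member with a positive value, 1.21. Leaving out shNSi replicate 2 or shDAP5 replicate 2 left 0 genes called in edgeR, with 4302 and 2313 genes at an unadjusted p under 0.05.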

How the results depend on the processing

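The results for total mRNA are counts of genes called, 53 as reported, and became 18 with library size without TMM, 577 without the filter, 272 with DESeq2, 35 with limma, 365 with the replicate block, 16 with the length offset and 3 in 1 fit of 14 libraries. Members called lower there became 1 (RRM2) without the filter and with the replicate block. Heavy polysome mRNA went from 4414 genes to 1506 with the length offset, 50 with the shNSi moderate pool and 421 with summed pools. Its 22 members called lower became 14 without TMM, 12 with the offset, 0 with the moderate pool and 1 with summed pools, and its 3 called higher became 7 with limma and 0 with the offset and either other pool. Light polysome mRNA went from 0 genes to 244 without the filter, 105 with DESeq2, 130 with the block, 4 with the offset, 1 in 1 fit and 3940 with the moderate pool, which called 11 members lower and 1 higher. Heavy translation efficiency went from 2012 genes to 0 without TMM, 688 with the block, 404 with the offset, 0 with the moderate pool and 0 with summed pools. Its 15 members called lower became 0 without TMM, 8 with limma, 4 with the replicate block (MCM2, ORC3, POLA1, RRM1), 6 with the offset and 0 with either other pool, and its 2 called higher became 0 without TMM, with the block, the offset and either pool. Light translation efficiency went from 0 genes to 3 without the filter, 1 with the block and 4367 with the moderate pool (13 members lower, 2 higher).

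Along the gradient, members called lower in shNSi heavy against light went from 5 to 8 without TMM. In shNSi moderate against light the 5240 genes became 2155 with no replicate block (no culture term), and the 15 members called higher became 9 without TMM and 5 with no block. In shNSi heavy against moderate the 4 members called lower, among 2126 of 16235 genes, became 12 without TMM (4889 of 16235), 8 without the filter (2773 of 30673) and 7 at a count minimum of 10 (2536 of 12828). In the difference between the lines 2777 genes became 552 with no block, 16 members called lower became 9 without TMM and 4 with no block, and 1 called higher became 3 and 0.

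With the moderate pool as control the sign reversed in all 17 members called in heavy translation efficiency and in 20 of the 25 called in heavy polysome mRNA, where the other 5 (CDC45, GINS4, RFC3, RPA3, RRM2) kept their sign and were not called. In heavy translation efficiency ORC3 was at 0.40, MCM2 1.32, MCM3 1.30, MCM4 1.26, MCM5 1.31, MCM6 1.36, MCM7 1.36, MCM10 0.76, RFC1 0.68, POLA1 0.80, PRIM2 0.48, POLD1 1.20, RPA1 1.06, LIG1 0.98, RRM1 1.13, GINS2 -0.20 and RPA3 -0.037. In heavy polysome mRNA ORC1 was at 0.77, ORC3 0.56, CDT1 0.19, MCM2 0.88, MCM3 0.98, MCM4 0.94, MCM5 0.93, MCM6 1.12, MCM7 0.80, MCM10 0.40, RFC1 0.71, POLA1 0.55, POLA2 0.27, PRIM2 0.30, POLD1 0.49, POLE 0.25, RPA1 0.59, LIG1 0.59, RRM1 0.71 and GINS2 -0.44. The cause was not tested.

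With 1 culture left out, which leaves an arm of 1 culture assumed to vary like the other, the counts ranged as follows. Total mRNA called 0 to 386 genes, with 0 to 1 members lower and 0 higher. Heavy polysome mRNA called 2 to 3559 genes, with 0 to 21 members lower and 0 to 3 higher, and light polysome mRNA 2 to 4678, with 0 to 20 and 0 to 2. Heavy translation efficiency called 4 to 4515 genes, with 0 to 17 members lower and 0 to 3 higher, and light translation efficiency 0 to 2030, with 0 to 8 and 0 to 2. The pool comparisons called 8196 to 10293 genes in shNSi heavy against light (4 to 8 members lower, 28 to 34 higher), 3264 to 7989 in shDAP5 heavy against light (1 to 2, 11 to 30), 2800 to 4166 in shNSi moderate against light (2 lower throughout, 10 to 14 higher) and 2914 to 6073 in shNSi heavy against moderate (3 to 7, 18 to 25). The difference between the lines called 0 to 3067 genes, with 0 to 13 members lower and 0 to 8 higher.

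Same-numbered cultures did not deviate together (across 16235 genes r = -0.31 in the heavy-to-total ratio, -0.13 in total mRNA, 0.058 in heavy polysome mRNA, 0.054 in light polysome mRNA and 0.019 in the light-to-total ratio), so the numbers were not taken as pairs. With the numbers crossed, chosen after seeing the data, 4133 genes were called in heavy translation efficiency, with 19 members lower and 3 higher, and 71 in total mRNA. The 17 members called in heavy translation efficiency kept their sign under every setting but the moderate pool.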
